A study of Mus musculus with 8 samples.

Results

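Complement and coagulation are cascades of plasma proteins, most of which the hepatocyte makes and secretes. The genes described here are 41 of the 46 complement factors, coagulation factors and inhibitors of both that were named for this work, out of 22180 genes tested on the arrays. A member counted as found when a row of the intensity table was annotated to that gene alone, and the row with the highest mean over 8 arrays was used for it. By that rule 18 of 21 complement genes and 23 of 25 coagulation genes were found. Masp2 and Klkb1 lay on rows shared with another gene and were set aside, and C3, Cfd and Cpb2 were not analysed here.

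Complement is started by recognition proteins that bind a surface (C1 in the classical pathway, mannose-binding lectins in the lectin pathway) and activate serine proteases. These cleave C4, C2 and C3, and the cascade ends when C5 to C9 build a pore in the target membrane. Coagulation is likewise a chain of protease activations, begun by tissue factor with factor VII or by the contact system, that converts prothrombin to thrombin and fibrinogen to fibrin. Antithrombin, protein C and related proteins hold it back, and plasmin dissolves the clot.

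The samples were livers of 3-month-old mice on normal chow and a normal light cycle, injected intravenously with adeno-associated virus, a gene transfer vector that enters hepatocytes. In the group labelled NCOR_KO (n = 4) the virus expressed Cre, the recombinase that deletes floxed DNA, and in the group labelled WT (n = 4) it expressed GFP. The design text gives NCOR floxed mice for both viruses although the controls are labelled wild-type, so whether the controls carried floxed alleles is not settled. NCOR is a corepressor that nuclear receptors use to silence their targets, and livers were taken 2 weeks after Cre, at 5 pm (ZT10), to compare their transcripts. The promoter that drove Cre is not given in the sources used here, and the effect of Cre itself and that of losing NCOR cannot be told apart in this design. The targeted gene itself was not analysed here, so the group labels were not checked against it. Whole liver was measured, and replicates are labelled biological without being tied to animals, so the tests reflect only how these samples varied.

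Median array intensity was 41.0 to 44.1, and 366 of all genes (1.65%) passed a limma adjusted p of 0.05, 181 higher and 185 lower in knockout. With each array centred on its median the split was 145 higher and 295 lower. All values below are log2 intensities in the order of replicates 1 to 4, all differences are knockout minus control on the log2 scale, and all adjusted p-values are limma's with Benjamini-Hochberg adjustment over all genes. The liver label was checked against hepatocyte markers, among which Alb was at 13.52 ± 0.02 in control and 13.52 ± 0.04 in knockout liver (SD, n = 4), a difference of 0.01 (95% interval -0.11 to 0.12).

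Of the 41 members, factor XI (F11), factor VII (F7) and the complement C8 beta chain (C8b) fell, mannose-binding lectin C (Mbl2) rose, and 37 did not pass. The share that passed, 9.76%, stands beside 1.65% of all genes, and 0.834% and 0.816% of all genes passed downward and upward. Differences were small apart from F11, but most pointed the same way: 37 of 41 were below 0, against 48.0% of all genes, and the median difference was -0.15 against 0.01. In 20 members all 4 knockout values lay below all 4 control values and in 3 they lay above, where 5.49% and 4.90% of all genes did so (10.4% together). An unadjusted p under 0.05 was reached by 24 of 41 members and by 15.9% of all genes. Members are bright, and bright genes differed from all genes in these shares, so 2 comparisons by level were added after seeing the data. The 7815 genes with a mean signal at or above that of the dimmest member lay below 0 in 59.8% of cases, 3.56% of them passed and 24.3% had an unadjusted p under 0.05. Their groups were apart downward in 11.4% and upward in 6.40%. The 320 genes at or above the median level of the members (11.71) lay below 0 in 55.0%, 5.00% of them passed and 24.1% had an unadjusted p under 0.05. Their groups were apart downward in 14.4% and upward in 13.4%, with a median difference of -0.00582. In whole liver a smaller number of the cells that make a transcript and less transcript per cell cannot be told apart.

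**Figure D1:**
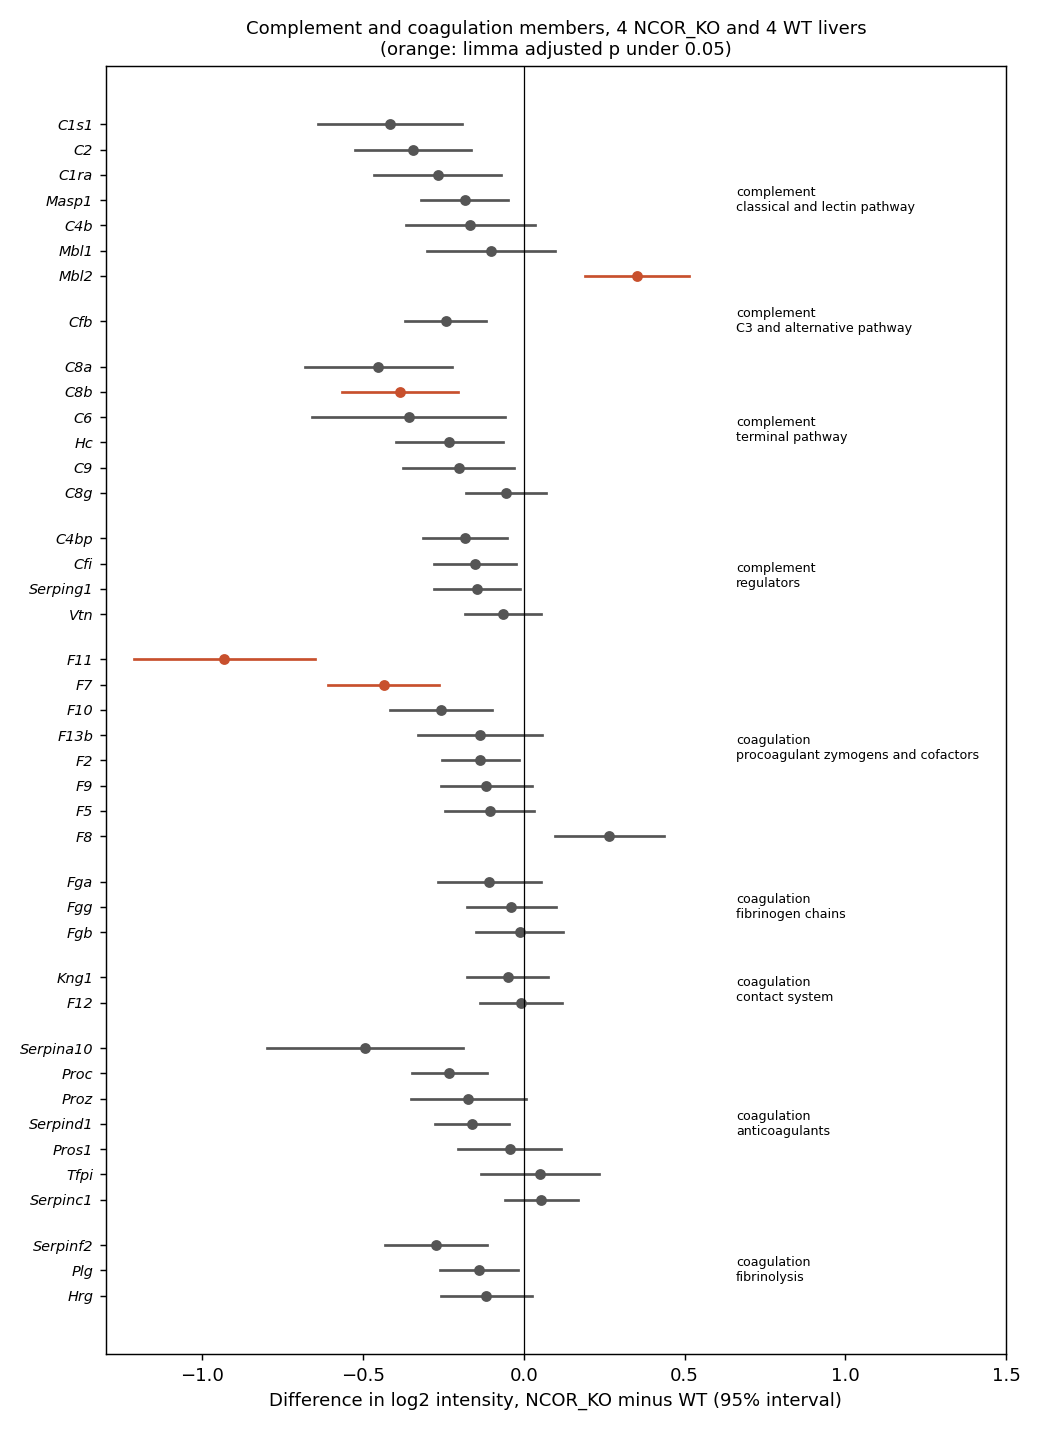
Difference in log2 intensity (knockout minus control, horizontal axis) of each of the 41 members, with its 95% interval, grouped by role; orange marks the 4 members past an adjusted p of 0.05. F11 lies farthest to the left at -0.93, Mbl2 and F8 are the only members whose whole interval lies above 0, and the 3 fibrinogen chains straddle 0.

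**Figure D2:**
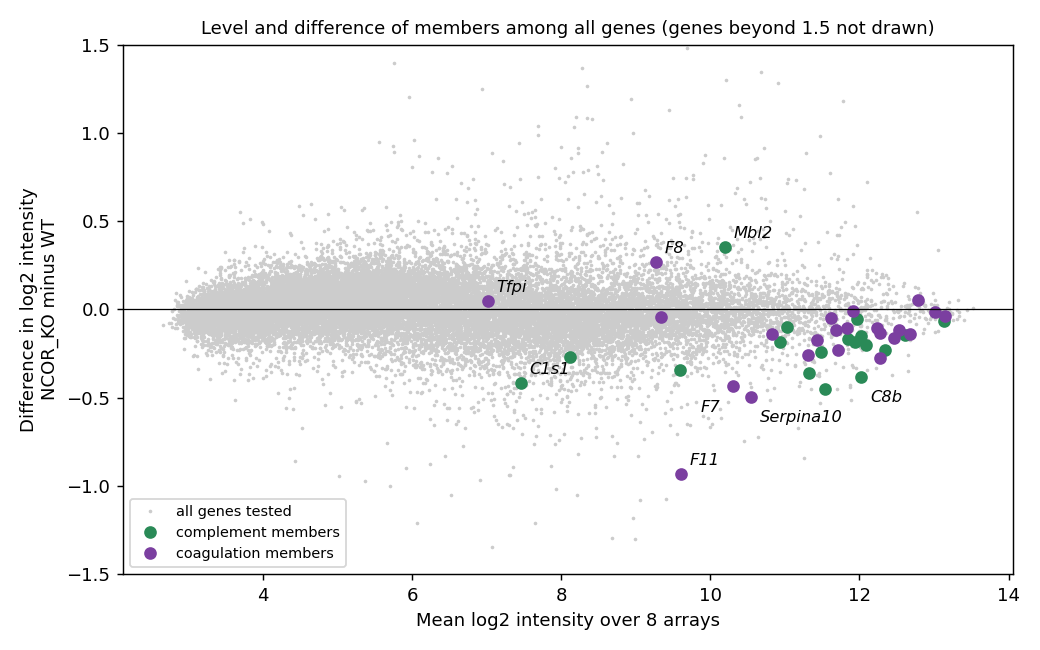
Difference in log2 intensity (vertical axis) against mean log2 intensity over 8 arrays (horizontal axis) for all genes tested (grey), complement members (green) and coagulation members (purple). Most members lie to the right of the plot and below 0, mostly within the grey cloud, and F11 is at its lower edge.

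F11, the zymogen of the protease that activates factor IX, had the widest gap of any member. Control liver gave 9.93, 10.08, 9.93 and 10.33, and knockout liver gave 8.84, 9.04, 9.36 and 9.31. The lowest control was above the highest knockout by more than the spread of either group, and NCOR_KO replicate 1 was the lowest array. The difference was -0.93 ± 0.13 (SE, adjusted p = 0.00691), which is 1.91-fold lower in knockout. It passed in all 15 alternative fits, with differences from -1.005 to -0.83 and adjusted p-values from 0.00313 to 0.0343.

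F7, which starts coagulation together with tissue factor, fell by 0.44 ± 0.08 (SE, adjusted p = 0.0252), or 1.35-fold. Its control values were 10.54, 10.40, 10.47 and 10.68, and its knockout values were 9.97, 10.04, 10.16 and 10.18. Every knockout value lay below every control value, with the arrays of each group close together. The call was lost without WT replicates 1, 3 and 4 (adjusted p = 0.0666, 0.0505 and 0.0634), without NCOR_KO replicates 1 and 2 (0.0691 and 0.0875), and with the replicate number as a block (0.0505).

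C8b, a chain of the C8 complex that joins the membrane pore, fell by 0.38 ± 0.08 (SE, adjusted p = 0.0466). It gave 12.40, 12.16, 12.14 and 12.14 in control and 11.68, 11.93, 11.91 and 11.81 in knockout liver. WT replicate 1 stood above the other controls, which lay close together, and the groups did not overlap. No single-array omission kept this call. The adjusted p was lowest at 0.0678 (without WT replicate 2) and highest at 0.109 (without NCOR_KO replicate 1), with differences from -0.42 to -0.32. With the replicate block it was 0.136.

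Mbl2, a lectin that binds microbial sugars and starts the lectin pathway, rose by 0.35 ± 0.07 (SE, adjusted p = 0.0435), or 1.28-fold. It gave 9.87, 10.02, 10.06 and 10.12 in control and 10.25, 10.34, 10.44 and 10.45 in knockout liver. All knockout arrays lay above all controls. Leaving out any single array also ended this call, with adjusted p from 0.0572 (without NCOR_KO replicate 1) to 0.113 (without NCOR_KO replicate 2), as did median centring (0.0723) and the replicate block (0.0565).

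**Figure D3:**
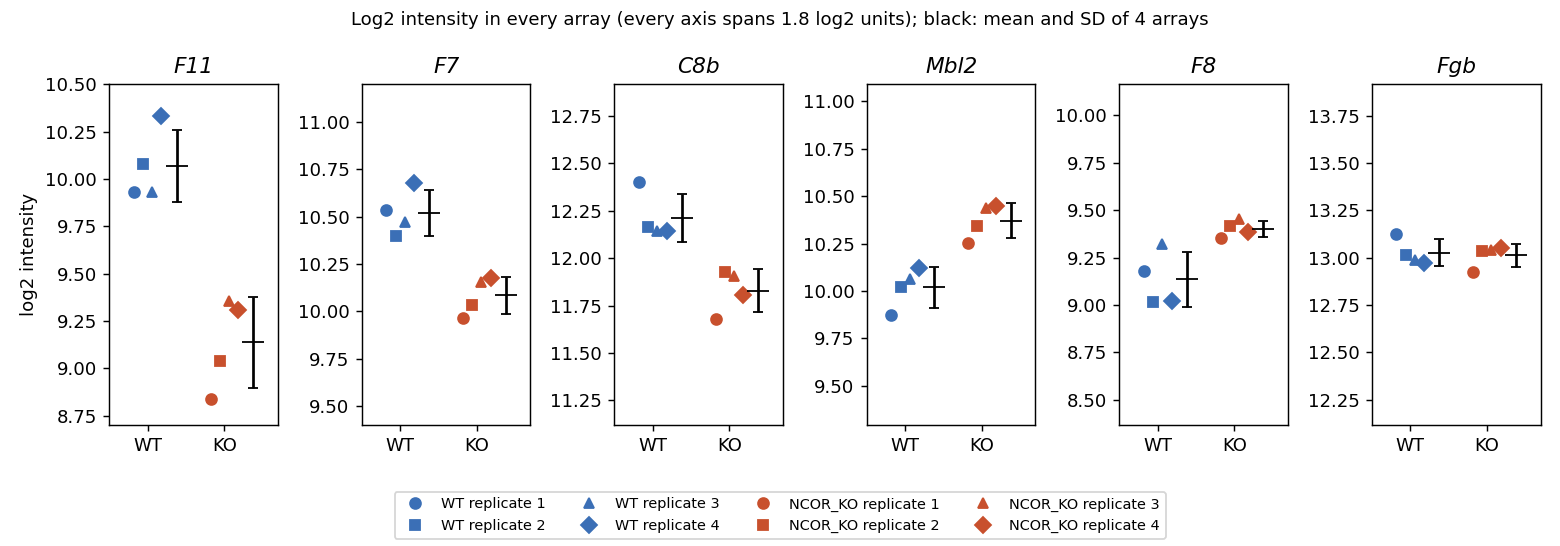
Log2 intensity (vertical axis, each panel spanning the same number of log2 units) of the 4 members that passed and of F8 and Fgb, with a symbol per replicate (blue, WT; orange, NCOR_KO) and the mean and SD of 4 arrays in black. The groups are apart for F11, F7, C8b and Mbl2, nearly touch for F8, and overlap for Fgb.

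The promoters of these 4 members are shown because they are the transcripts that passed the test. Each is the 250 bases before the annotated start, 5′ to 3′ on the gene's strand, from RefSeq on GRCm38.p6. Capitals mark every match to a searched motif on either strand: the nuclear receptor half-site AGGTCA (on the other strand TGACCT) and the HNF1 half-site GTTAAT (on the other strand ATTAAC). The F11 window is chr8:45262032-45262281 (minus strand), that of F7 chr8:13025784-13026033 (plus strand), that of C8b chr4:104766067-104766316 (plus strand) and that of Mbl2 chr19:30232678-30232927 (plus strand).
F11: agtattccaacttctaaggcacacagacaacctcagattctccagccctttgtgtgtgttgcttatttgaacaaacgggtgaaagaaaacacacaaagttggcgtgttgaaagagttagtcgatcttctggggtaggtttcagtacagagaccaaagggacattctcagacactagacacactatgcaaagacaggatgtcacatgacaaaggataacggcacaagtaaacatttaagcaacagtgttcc
F7: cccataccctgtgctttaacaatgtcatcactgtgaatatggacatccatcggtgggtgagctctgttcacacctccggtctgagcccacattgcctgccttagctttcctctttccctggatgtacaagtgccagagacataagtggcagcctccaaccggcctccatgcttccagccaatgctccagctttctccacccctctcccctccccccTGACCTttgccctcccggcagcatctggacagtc
C8b: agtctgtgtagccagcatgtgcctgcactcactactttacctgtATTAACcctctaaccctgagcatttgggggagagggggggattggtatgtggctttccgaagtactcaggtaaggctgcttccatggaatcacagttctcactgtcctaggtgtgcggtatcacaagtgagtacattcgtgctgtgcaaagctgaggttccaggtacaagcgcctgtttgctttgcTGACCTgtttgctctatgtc
Mbl2: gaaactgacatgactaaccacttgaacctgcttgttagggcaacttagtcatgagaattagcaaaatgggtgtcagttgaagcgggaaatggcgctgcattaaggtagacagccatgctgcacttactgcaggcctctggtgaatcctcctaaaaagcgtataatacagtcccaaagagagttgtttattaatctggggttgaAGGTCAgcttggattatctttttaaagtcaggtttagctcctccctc

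The half-site AGGTCA was found in the windows of F7, C8b and Mbl2 and not in that of F11, where none of the searched motifs matched. The match began 34, 20 and 47 bases before the start of F7, C8b and Mbl2, and C8b also held an HNF1 half-site. A promoter window was at hand for 31 of the 41 members, and 1 window per gene was searched. AGGTCA was in 9 of the 31 (29.0%), against 13.8% of 27025 genes, and GTTAAT in 10 (32.3%) against 6.52%. The STAT letters TTCNNNGAA were in 5 (16.1% against 7.18%), the C/EBP letters TTGCNNCAA in 2 (6.45% against 1.78%) and TATAAA in 3 (9.68% against 13%). The direct repeats of AGGTCA spaced by 1 and by 4 bases were in 0 members, and in 0.0370% and 0.0111% of genes. These are letter matches in a short window, and they include both members that passed and members that did not.

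In the classical and lectin pathways 1 of 7 measured members rose (Mbl2), 0 fell and 6 did not pass, with a median difference of -0.18. C1s1, the C1 protease that cleaves C4 and C2, gave 7.60, 7.62, 7.53 and 7.90 in control and 7.14, 7.30, 7.46 and 7.09 in knockout liver. Its groups did not overlap, at -0.42 ± 0.10 (SE, adjusted p = 0.0751). A second row for C1s1 was at -0.54, and with the mean of both rows C1s1 passed (adjusted p = 0.00430). In all, C1s1 passed in 3 of 15 alternative fits. WT replicate 4 was the highest control on the first row (7.90) and the lowest on the second (6.28), which averaging evens out. C1ra, the partner protease in C1, was at -0.27 (adjusted p = 0.177) with overlapping groups.

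C2, the protease subunit of the C3 convertase, gave 9.87, 9.66, 9.74 and 9.77 in control and 9.20, 9.47, 9.49 and 9.50 in knockout liver. NCOR_KO replicate 1 was far below the other knockouts, and the groups were apart without it too. The difference was -0.34 ± 0.08 (SE, adjusted p = 0.0699), and it passed in 4 of 15 alternative fits. Masp1, a protease bound to mannose-binding lectin, gave 11.02, 11.15, 10.92 and 11.03 and 10.85, 10.86, 10.82 and 10.84, a difference of -0.18 (adjusted p = 0.178). Its knockout arrays were nearly equal and all below the controls. C4b, the C4 precursor, was at -0.17 (95% interval -0.37 to 0.03) and Mbl1, the other mannose-binding lectin, at -0.10 (-0.30 to 0.10), both with overlapping groups. Its relative Mbl2 is the member that rose. C4b has the near-identical paralogue C4a, so its signal may not be its own alone.

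Cfb, the protease subunit of the alternative pathway convertase, was the only measured member of that pathway. Control liver gave 11.70, 11.60, 11.56 and 11.58 and knockout liver 11.39, 11.40, 11.34 and 11.33. The groups were apart at -0.24 ± 0.06 (SE, adjusted p = 0.0663), and Cfb passed in 3 of 15 alternative fits.

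In the terminal pathway 1 of 6 members fell (C8b), 0 rose and 5 did not pass, all 6 were below 0, and the median difference was -0.29. C8a, the chain that C8b pairs with, gave 12.03, 11.71, 11.64 and 11.70 in control and 11.27, 11.46, 11.44 and 11.11 in knockout liver. Its groups did not overlap, at -0.45 ± 0.10 (SE, adjusted p = 0.0603), a gap of similar size to that of C8b. C8g, the small lipocalin chain of the same complex, was at -0.06 (95% interval -0.18 to 0.07, adjusted p = 0.673). The intervals of C8a and C8g do not overlap each other, though the difference between the chains was not tested. Hc, which encodes C5, gave 12.64, 12.41, 12.32 and 12.47 and 12.22, 12.25, 12.29 and 12.15, a difference of -0.23 (adjusted p = 0.164) with the groups apart. C6 (-0.36, adjusted p = 0.232) and C9 (-0.20, adjusted p = 0.237), which follow C5 in the pore, had overlapping groups.

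None of the 4 complement regulators passed with limma at an adjusted p of 0.05, and 3 had an unadjusted p under 0.05. In all 4 the knockout arrays lay below the controls. Over all genes 15.9% had such an unadjusted p and 5.49% were apart downward. Among genes at or above the median member level these shares were 24.1% and 14.4%. C4bp, which limits the C4b-containing convertase, gave 12.08, 11.99, 12.09 and 11.95 and 11.84, 11.91, 11.80 and 11.82 (-0.18, adjusted p = 0.166). Cfi, the protease that inactivates C3b and C4b, gave 12.18, 12.08, 12.05 and 12.07 and 11.92, 11.96, 11.998 and 11.88 (-0.15, adjusted p = 0.232). These gaps are small, and the separation rests on the tight spread of each group. Serping1, the C1 inhibitor, gave 12.79, 12.65, 12.65 and 12.63 and 12.48, 12.59, 12.50 and 12.58 (-0.14, adjusted p = 0.277). Vtn, which keeps the terminal complex out of membranes, gave 13.24, 13.16, 13.15 and 13.13 and 13.12, 13.12, 13.08 and 13.10 (-0.07, adjusted p = 0.588). All 4 were apart by less than 0.05 at their nearest arrays, and the Vtn difference was -0.04 without WT replicate 1, -0.03 with quantile normalization and -0.10 with median centring.

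Among procoagulant zymogens and cofactors 2 of 8 fell (F11 and F7), 0 rose and 6 did not pass. F10, the protease that makes thrombin, gave 11.50, 11.40, 11.42 and 11.46 and 11.01, 11.18, 11.30 and 11.26, a difference of -0.26 ± 0.07 (SE, adjusted p = 0.109). F2, prothrombin, gave 12.39, 12.31, 12.31 and 12.36 and 12.25, 12.17, 12.20 and 12.21, a difference of -0.13 (adjusted p = 0.253). In both genes every knockout array was below every control. F9 (-0.12, adjusted p = 0.410), the cofactor F5 (-0.11, adjusted p = 0.439) and F13b (-0.14, adjusted p = 0.481), the carrier subunit of the fibrin crosslinker, had overlapping groups.

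F8, the cofactor of factor IX, was the exception in this role. Control liver gave 9.18, 9.02, 9.32 and 9.02 and knockout liver 9.35, 9.41, 9.45 and 9.38. The knockout arrays were all above the controls, though only just above WT replicate 3, and the difference of 0.27 ± 0.08 (SE, adjusted p = 0.123) did not pass. Liver F8 comes chiefly from sinusoidal endothelial cells, unlike the hepatocyte factors. All 12 measured endothelial markers were above 0, against 11539 of 22180 genes. These markers had a median of 0.21, and 0 of 12 passed. With limma 8 had an unadjusted p under 0.05, against 15.9% of all genes. Their summed intensity was 8334 to 10195 in control and 9844 to 11383 in knockout arrays. The largest was Cdh5, the cadherin of endothelial junctions, at 0.30 (adjusted p = 0.108). Being above 0 was not particular to endothelial markers. So were 8 of 9 Kupffer cell, 4 of 4 platelet and 4 of 5 lymphocyte markers. Cholangiocyte markers were above 0 in 5 of 5, with a median of 0.23 and mean levels of 3.99 to 7.34. Stellate cell, adipocyte and neutrophil markers were split, with 5 of 10, 3 of 5 and 3 of 6 above 0. The part of endothelial signal in the F8 value was not tested.

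The fibrinogen chains had a median difference of -0.04, where that of all coagulation members was -0.12. With limma 0 of 3 passed and 0 had an unadjusted p under 0.05. Fga gave 12.40, 12.31, 12.25 and 12.17 and 12.04, 12.18, 12.25 and 12.24, a difference of -0.11 (95% interval -0.27 to 0.05, adjusted p = 0.509). It was -0.07 without WT replicate 1 and -0.06 without NCOR_KO replicate 1. The intervals of Fgb (-0.01, -0.15 to 0.12) and Fgg (-0.04, -0.18 to 0.10) reached no lower than -0.18, which leaves small changes possible. In the contact system F12, the zymogen activated on surfaces, was at -0.01 (95% interval -0.14 to 0.12). Kng1, high molecular weight kininogen, gave 11.61, 11.60, 11.64 and 11.71 and 11.59, 11.53, 11.66 and 11.57 (-0.05, interval -0.18 to 0.08), and was at -0.09 with median centring and at -0.03 without WT replicate 4 or NCOR_KO replicate 2. The groups overlapped in all 5 of these genes, whereas F11, which the contact system activates, was far apart.

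Among anticoagulants 0 of 7 passed with limma, and 3 had an unadjusted p under 0.05, against 15.9% of all genes. Serpina10, the inhibitor of factors X and XI that works with protein Z, gave 11.24, 10.54, 10.81 and 10.59 in control and 10.24, 10.32, 10.18 and 10.45 in knockout liver. WT replicate 1 was high, the groups were apart, and the difference of -0.50 ± 0.14 (SE, adjusted p = 0.109) was -0.35 without that array. Proc, protein C, gave 11.83, 11.79, 11.86 and 11.82 and 11.55, 11.62, 11.62 and 11.57. Both groups were tight and far apart for their spread, at -0.23 ± 0.05 (SE, adjusted p = 0.0616), and Proc passed in 4 of 15 alternative fits.

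Serpind1, heparin cofactor II, gave 12.56, 12.54, 12.51 and 12.56 and 12.33, 12.39, 12.41 and 12.40 (-0.16, adjusted p = 0.167), with the groups apart. Serpinc1, antithrombin, gave 12.78, 12.76, 12.76 and 12.72 and 12.79, 12.81, 12.83 and 12.81. Here the knockout arrays lay above the controls by a small margin, at 0.05 (95% interval -0.06 to 0.17, adjusted p = 0.646), or 0.02 with median centring. Proz, protein Z, was at -0.17 (adjusted p = 0.328), the cofactor Pros1 at -0.04 (-0.20 to 0.12) and Tfpi, the tissue factor pathway inhibitor, at 0.05 (-0.13 to 0.23), all with overlapping groups.

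In fibrinolysis 0 of 3 passed with limma, and 2 had an unadjusted p under 0.05, against 15.9% of all genes. Serpinf2, the plasmin inhibitor, gave 12.46, 12.40, 12.35 and 12.44 and 11.98, 12.10, 12.22 and 12.26, a difference of -0.27 ± 0.07 (SE, adjusted p = 0.0948). Plg, the precursor of plasmin, gave 12.78, 12.77, 12.70 and 12.73 and 12.61, 12.56, 12.59 and 12.67 (-0.14, adjusted p = 0.253). Both were lower in every knockout array than in any control, while Hrg, which tethers plasminogen, overlapped at -0.12 (adjusted p = 0.408).

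Arrays of the same group differed in a way that ran through many members. WT replicate 1 was the highest control in 26 of 41 members, and NCOR_KO replicate 1 was the lowest knockout in 22. The median of the complement members, each set against its control mean, was 0.11 in WT replicate 1 and -0.05 to -0.03 in the other controls, and lay between -0.22 and -0.16 in knockout arrays. For coagulation members it was 0.05 and -0.03 to -0.01 in the same controls, and -0.21 to -0.05 in knockout arrays. Over all genes tested it was 0.02 in WT replicate 1, -0.03 to 0.003 in the other controls and -0.002 to 0.008 in knockout arrays. How often each array was highest or lowest was not counted over all genes.

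Acute phase genes, which hepatocytes switch on in inflammation together with several complement genes, moved with the same array. WT replicate 1 was the highest control in 14 of 15 of them, and their median was 0.30 there against -0.10 to -0.03 in the other controls and -0.33 to -0.15 in knockout arrays. The serum amyloid gene Saa2 gave 12.07, 8.89, 9.70 and 7.69 in controls and 8.12, 8.30, 8.47 and 9.15 in knockouts, and the orosomucoid gene Orm2 gave 11.86, 8.17, 8.70 and 8.61 and 7.49, 7.995, 8.14 and 8.53; both were chosen after their values were seen. Neither passed (adjusted p = 0.503 and 0.375), while Saa4, a constitutive relative, fell by 0.37 (adjusted p = 0.0404), a call that held without NCOR_KO replicate 2 (0.0436) and was lost without any other single array (up to 0.105) and with the replicate block (0.103). In all, 1 of 15 acute phase genes fell and 0 rose. Their summed intensity was 56239 to 74599 in control and 52391 to 55461 in knockout arrays. Of the 15, 13 were below 0, against 48.0% of all genes, with a median difference of -0.21. With limma 4 had an unadjusted p under 0.05, against 15.9% of all genes. In 4 the groups were apart downward and in 0 upward, against 5.49% and 4.90% of all genes. Acute phase genes are bright too. Among genes at or above the median member level, 55.0% lay below 0 and 24.1% had such an unadjusted p. Their groups were apart downward in 14.4% and upward in 13.4%. The shift below 0 was thus not confined to complement and coagulation members. The acute phase median without WT replicate 1 was not calculated. Without WT replicate 1 the median complement difference was -0.17 in place of -0.19, the coagulation median -0.11 in place of -0.12, 34 of 41 members were below 0, and F11 was the 1 member that passed.

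**Figure D4:**
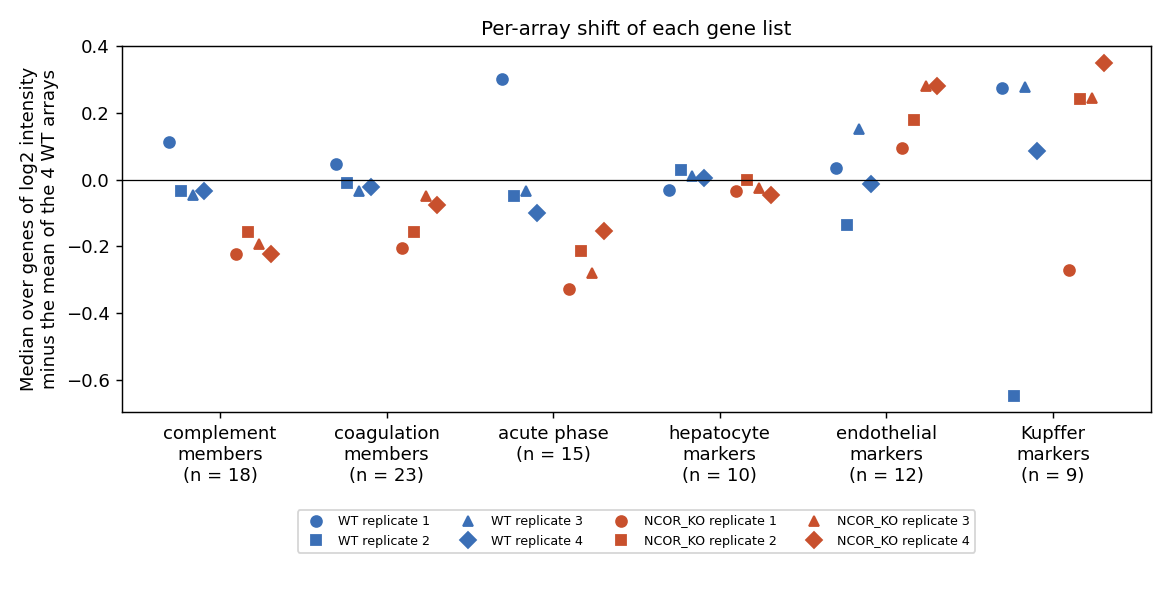
Median over each gene list of log2 intensity minus the gene's mean in the 4 controls (vertical axis), for every array (blue, WT; orange, NCOR_KO; symbols give the replicate). Complement and coagulation members lie lower in all 4 knockout arrays, acute phase genes are high in WT replicate 1 at 0.30, hepatocyte markers stay near 0, and Kupffer markers are low in WT replicate 2 and NCOR_KO replicate 1.

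Several members lie side by side in the genome, which the choice of members did not use. In the RefSeq gene table, used only for gene order, no protein-coding gene separates C8b from C8a, and both were low in knockout (-0.38 and -0.45). F7, F10 and Proz follow each other, with differences of -0.44, -0.26 and -0.17. C1ra and C1s1 are adjacent (-0.27 and -0.42), as are Cfb and C2 (-0.24 and -0.34). The fibrinogen chains Fgg, Fga and Fgb form another run, with differences of -0.04, -0.11 and -0.01. Hrg and Kng1, with 1 gene between them, were at -0.12 and -0.05. F11 adjoins Klkb1, which had no row of its own.

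Other genes of both systems came from lists of receptors, cofactors, surface regulators, processing enzymes and further plasma proteins. In the limma fit 0 of 26 further complement genes and 0 of 29 further coagulation and fibrinolysis genes passed. An unadjusted limma p under 0.05 was reached by 6 of each list, against 15.9% of all genes. Of genes at least as bright as the dimmest member, 24.3% reached it. Below 0 were 12 and 16, against 48.0% of all genes. Groups were apart downward in 3 and 5 and upward in 1 and 0, against 5.49% and 4.90% of all genes. The lists mix bright and dim genes, with mean levels of 3.81 to 11.12 and 4.61 to 13.05. The 2 median differences were 0.02 and -0.00286, and plasma proteins were not summarised apart from the rest. The largest in the first list was C4a, a C4 isotype, at -0.94 ± 0.27 (SE, adjusted p = 0.120), with 7.76, 7.45, 7.25 and 8.64 in control and 6.71, 6.97, 7.22 and 6.47 in knockout liver. In the second it was F3, tissue factor, at -0.32 (adjusted p = 0.0700). Colec10, a liver collectin of the lectin pathway chosen after its value was seen, was at 0.50 (adjusted p = 0.0602), and it passed without WT replicate 3 (adjusted p = 0.0388). Of 12 hepatocyte transcription factors 1 fell, Cebpa (-0.35 ± 0.06, adjusted p = 0.0158), and 11 did not pass. Of the 12, 9 were below 0 and 3 above, with a median difference of -0.13. With limma 5 of these factors had an unadjusted p under 0.05, not all in the same direction, against 15.9% of all genes. Cebpa gave 11.15, 11.10, 11.04 and 11.13 in control and 10.81, 10.79, 10.68 and 10.74 in knockout liver. The Cebpa call was lost without WT replicates 1 or 4, without NCOR_KO replicates 2 or 3 (adjusted p up to 0.0549) and with the replicate block (0.0565).

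Markers of the cells that liver tissue holds were set beside the members. Hepatocyte markers had a median of -0.03, with 0 of 10 past the limma threshold, 0 at an unadjusted p under 0.05 and 6 below 0, and a summed intensity of 76849 to 79623 in control and 76449 to 77863 in knockout arrays. Kupffer cell (9 genes, median 0.12), stellate cell (10, 0.00301), adipocyte (5, 0.08), platelet (4, 0.13) and neutrophil (6, -0.01) markers had 0 genes past the limma threshold, and 1 of these, a platelet marker, had an unadjusted p under 0.05. Kupffer markers summed to 2054 to 3717 in control and 2404 to 4026 in knockout arrays. Among cholangiocyte markers 1 of 5 rose (Epcam, 0.41, adjusted p = 0.0452), and among lymphocyte markers 2 of 5 rose (Cd3e, 0.47, adjusted p = 0.0373, and Cd79a, 0.41, adjusted p = 0.0173). Cd3e and Cd79a were dim, at 5.57 and 5.08 in control liver, where the median gene was at 5.88. The other lymphocyte markers lay between -0.04 and 0.10 and did not pass. The Epcam call was lost without any single array, that of Cd3e without any but WT replicates 2 and 4, and that of Cd79a without WT replicates 1 or 4 or NCOR_KO replicate 3, with adjusted p up to 0.127, 0.116 and 0.0573. All 3 were lost with the replicate block (0.129, 0.0696 and 0.0698). Quantile normalization also ended the Epcam and Cd3e calls (0.0587 and 0.0567), and median centring that of Epcam (0.0569). The part of these cell types in the members' values was not tested.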

How the data were processed

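Total RNA of 8 livers was hybridised to 1-colour Affymetrix Mouse Gene 2.0 arrays. The deposited values are linear intensities per probe set. RMA and Partek appear in the submitters' processing notes, while versions, background settings, filters and the build are not given in the sources used here. Log2 was taken without further normalization. The table had 41345 rows. Rows with no gene (16010) or more than 1 (1814) were dropped, and each gene's brightest row was kept, dim genes included, leaving 22180 genes. Both groups entered 1 limma fit (version 3.58.1, R 4.3.3; lmFit and eBayes without trend, group only), with an adjusted p threshold of 0.05 and 95% intervals. The script was tested on simulated data. Members, gene lists, motifs and alternatives were chosen with earlier results of these data known. Every array's value is given for members that passed, members whose groups did not overlap, and the largest difference in each role. Genes of other lists were named where they passed or, in the lists whose largest difference is given, for that; Alb, Saa2, Orm2 and Colec10 were named outside this rule. Alternatives were quantile normalization, median centring, array weights, a trend with robust variance, a filter on genes below the median level, averaging a gene's rows, a replicate block, leaving out each array, and a threshold of 0.1. The number of arrays limits the precision.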

Additional observations from a re-analysis of the deposited data

Results flagged for a closer look

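In 6 of 96 groups of 4 arrays checked, 1 array lay far from the others, where chance gives about 1 in 20. The groups were those of the 41 members and of Cebpa, Colec10, C4a, F3, Orm2, Saa2 and Saa4. Orm2, Saa2 and Colec10 had been chosen after their values were seen, so the count is no test against chance. WT replicate 1 was the high array in 4 of the 6 groups: C4b at 12.21 (others 11.81 to 11.86), C8b at 12.40 (others 12.14 to 12.16), Serping1 at 12.79 (others 12.63 to 12.65) and Orm2 at 11.86 (others 8.17 to 8.70). NCOR_KO replicate 1 was the low array in 2: C2 at 9.20 (others 9.47 to 9.50) and Fgb at 12.92 (others 13.03 to 13.05).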

How the results depend on the processing

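No named member changed direction in any alternative fit, F11 passed in all 15, and the median differences of complement and coagulation members stayed below 0. They moved by less than the spread between arrays, though the coagulation median went from -0.12 to -0.07 without both WT replicate 1 and NCOR_KO replicate 1, and Serping1 and Serpina10 to -0.09 and -0.33. The counts were less stable. Of all genes 551 passed among those at or above the median level, 155 with the replicate block and 807 at a threshold of 0.1, and 120 to 297 with 1 array left out. All members counted 4, and 8 with median centring (0 higher, 8 lower), 10 with trend and robust variance, 9 among genes at or above the median, 10 at a threshold of 0.1, 1 with the replicate block, and 1 to 2 with 1 array left out: 2 (F11 and F7) without WT replicate 2 or NCOR_KO replicates 3 or 4, and 1 (F11) without any other. Complement counted 2, and 5 with median centring and with trend and robust variance, 6 among genes at or above the median and at a threshold of 0.1, and 0 with the replicate block and with any 1 array left out. Coagulation counted 2, and 5 with trend and robust variance, 4 at a threshold of 0.1, 1 with the replicate block, and 1 to 2 with 1 array left out. The other genes of both systems counted 0, and 1 with median centring and with array weights (F3), 1 with trend and robust variance (Colec10), 2 among genes at or above the median and at a threshold of 0.1 (both), and 0 to 1 with 1 array left out. Left out together, as chosen after seeing the data, WT replicate 1 and NCOR_KO replicate 1 gave 100 genes, 1 member, 0 complement and 1 coagulation member; WT replicate 2 and NCOR_KO replicate 1 gave 202, 2, 0 and 2. Fewer arrays or genes account for part of these shifts by construction; other causes were not tested. Deviations of same-numbered arrays gave no sign of pairing, with correlations of -0.094, 0.007, 0.017 and -0.064. Those of differently numbered arrays ranged from -0.180 (WT replicate 3, NCOR_KO replicate 1) to 0.222 (WT replicate 3, NCOR_KO replicate 4). The replicate block kept 1 member, F11. A block leaves less data to estimate the error, so the lost calls do not tell whether samples were paired.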

Other observations

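The row shared by Klkb1, plasma prekallikrein, and another gene averaged 11.75 over the controls and 11.57 over the knockouts. The row shared by Masp2, a lectin pathway protease, and another gene had 11.56 and 11.39. Neither row tells which of its genes gave the signal, and neither was tested. Spread between arrays within a group was smallest among members for Serpinc1 (pooled SD 0.0216) and largest for Serpina10 (0.239), with a median of 0.0957 against 0.113 over all genes.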
